A study of Mus musculus with 4 samples.

Results

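Described here are 8 genes of the recruitment of monocytes from blood into tissue: the chemokine ligands Ccl2, Ccl7, Ccl8, Ccl12 and Ccl24, and the receptors Ccr2, Ccr1 and Cx3cr1. They were chosen by gene symbol, and all 8 were found among the 31053 mouse features that were counted. The data are single-cell RNA counts from 4 mammary tumours, each grown for 14 days from equal numbers of injected cells of H605, a HER2-positive mouse mammary tumour line, placed in the mammary pad of FVB/NJ mice aged 6 to 8 weeks. Hosts were wild type in 2 tumours (WT) and lacked Il1a, the gene of interleukin 1α, in the other 2 (Il1a-/-). The injected cells came from the same line in both groups, so the knockout is in the host only. Each library is 1 tumour, enriched for live cells before droplet capture, and no sort by cell type is stated. A WT and an Il1a-/- tumour made up a pair, and the pairs were collected on separate days. The labels do not say whether the replicate number marks the day.

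Chemokines are small secreted proteins that draw in cells bearing the matching G protein-coupled receptor. CCL2, CCL7 and CCL12 are ligands of CCR2, the receptor that classical monocytes use to leave the bone marrow and enter inflamed tissue and tumours. CCL8 acts on other chemokine receptors in the mouse, CCR8 among them, and CCL24 is an eosinophil attractant that acts through CCR3. CCR1 is shared by several ligands and is used by neutrophils as well as monocytes. CX3CR1 binds the tethered chemokine CX3CL1 and marks patrolling monocytes, many tissue macrophages and some cytotoxic lymphocytes.

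Of the 5 ligand genes, 4 lie in 1 stretch of chromosome 11 of GRCm38, and their order along the plus strand is Ccl2 (82035571-82037453), Ccl7 (82045712-82047525), Ccl12 (82101845-82103400) and Ccl8 (82115185-82116799). The gap between Ccl2 and Ccl7 is 8.26 kb, that between Ccl7 and Ccl12, which holds Ccl11, is 54.3 kb, and that between Ccl12 and Ccl8 is 11.8 kb. Ccl24 lies alone on chromosome 5 (135569937-135573049, minus strand). On chromosome 9 lie Cx3cr1 (119901616-120069879, minus strand), Ccr1 (123962124-123968692, minus strand) and Ccr2 (124101950-124113557, plus strand), with 133 kb between Ccr1 and Ccr2. All are protein-coding genes in GENCODE vM21.

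Ccl12 and Ccl8 were the pair of neighbouring ligand genes found mainly in macrophages, so the 250 bases before their start sites are shown here. RefSeq promoter entries matched 5 of the 8 genes. The sequences are those of RefSeq for GRCm38.p6, 5′ to 3′ on the plus strand, from chr11:82101595-82101844 for Ccl12 and chr11:82114935-82115184 for Ccl8. Capitals mark TATAAA and the core letters GAGGAA (or TTCCTC, the same letters on the other strand).
Ccl12: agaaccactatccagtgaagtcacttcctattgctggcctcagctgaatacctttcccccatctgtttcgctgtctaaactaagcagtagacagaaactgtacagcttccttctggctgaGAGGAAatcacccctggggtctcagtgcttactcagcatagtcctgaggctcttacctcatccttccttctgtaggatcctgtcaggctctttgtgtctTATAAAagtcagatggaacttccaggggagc
Ccl8: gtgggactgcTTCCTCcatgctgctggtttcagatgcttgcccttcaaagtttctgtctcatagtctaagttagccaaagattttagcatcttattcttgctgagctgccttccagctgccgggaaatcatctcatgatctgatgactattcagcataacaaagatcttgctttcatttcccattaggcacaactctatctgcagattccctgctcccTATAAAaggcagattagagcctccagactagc
Both windows hold TATAAA, 31 bases before the start in Ccl12 and 32 bases before it in Ccl8. Of 32851 RefSeq promoter windows of 300 bases (250 before and 50 after the start), 13.6% hold TATAAA and 28.3% hold GAGGAA on either strand. With the TATAAA letters aligned, 35 of the last 80 bases were the same in both sequences (43.8%), against 82 of all 249 compared bases (32.9%). The TATAAA letters match by construction, and the 80 bases are part of the 249. No other promoter pair was compared. Neither promoter window of the pair holds TGANTCA (the AP-1 letters), TTCNNNGAA (the GAS letters) or matches for the ISRE and NF-kB motifs, searched on both strands. These are found in 7.81%, 8.30%, 3.44% and 50.8% of all windows. These are letter matches only.

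The libraries held 6705368 to 29001333 unique molecular identifiers (UMIs, each standing for 1 captured transcript), and both Il1a-/- libraries were shallower than both WT libraries. Between 3130 and 3865 cells were called per tumour, with medians of 3107 and 4204.5 UMIs per cell in WT and 1348 and 2892 in Il1a-/-, in the order of the replicate numbers. Any pair of libraries shared 0 to 5 cell barcodes, where 1.49 to 2.19 would be shared by the size of the barcode list. Cells were clustered without the 8 genes and named from marker genes. There were 8100 T/NK-like, 1662 phagocyte-like, 1144 fibroblast-like, 731 tumour epithelial-like, 461 plasmacytoid dendritic-like, 293 conventional dendritic-like and 116 neutrophil-like cells. The name phagocyte-like comes from a list of markers of mononuclear phagocytes (monocytes and macrophages). Clusters that failed the naming rule held 1454 cells, of which 1337 formed a cluster led by S1pr1, Tcf7 and Ccr7. That cluster had 10 of 12 T/NK markers, but Ccr7, a listed dendritic marker, was among its leading genes and no T/NK marker was. Of the 1454 cells, 1228 passed the T/NK marker gate, so the T/NK-like class leaves out many likely T cells. Tumour epithelial-like cells were few in Il1a-/- tumours (29 and 3 cells, against 448 and 251), so they enter no comparison. Levels are given as CPM, the UMIs of a gene scaled to the UMI total of its cell class, which compares 1 gene between cells and not genes with each other in molecules per length. A level summed over a class cannot tell fewer expressing cells from less RNA per cell.

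The 5 ligands fell into 2 patterns of source cells. Ccl2 and Ccl7 came from fibroblast-like and phagocyte-like cells, and Ccl8, Ccl12 and Ccl24 came mostly from phagocyte-like cells. Of all 3936 Ccl2 UMIs in called cells, 63.7% were in fibroblast-like and 34.2% in phagocyte-like cells. In WT replicate 1, 19 further Ccl2 UMIs came from 5 mast/basophil-like cells. Of 3350 Ccl7 UMIs, 68.0% were in fibroblast-like and 31.0% in phagocyte-like cells. The phagocyte-like class held 85.8% of the 44249 UMIs of Ccl8, 96.4% of the 1757 UMIs of Ccl12 and 98.0% of the 17744 UMIs of Ccl24. For Ccl8 the share was lowest in Il1a-/- replicate 1, at 57.7% with 34.9% in fibroblast-like cells, against 6.48% to 13.2% in fibroblast-like cells of the other tumours. The plot of UMI shares shows that the class holding most UMIs of each ligand was the same in all 4 tumours.

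**Figure D1:**
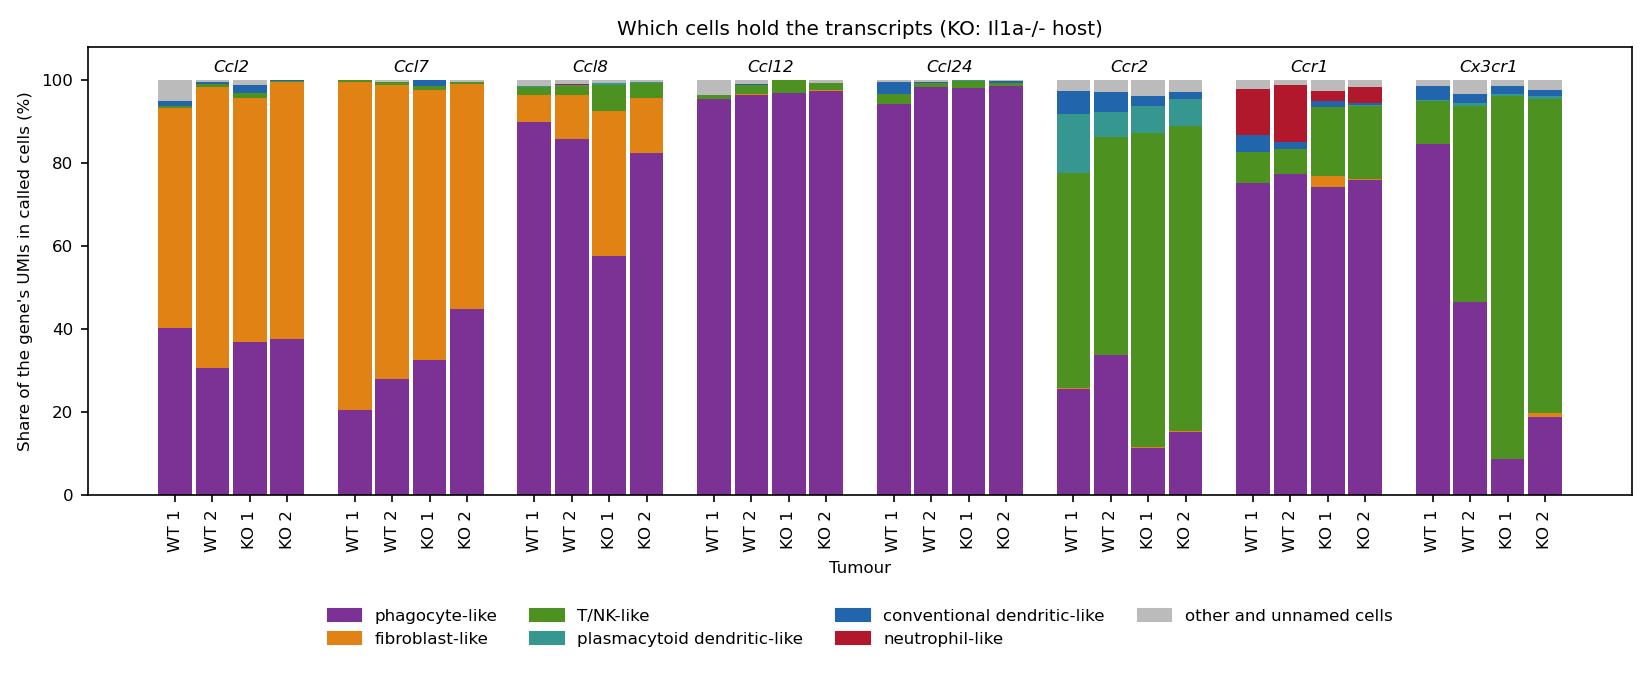
Share of each gene's UMIs, in percent of its UMIs in all called cells, that each cell class held, with 1 bar for each tumour (WT 1 and 2, Il1a-/- 1 and 2, the latter marked KO). Fibroblast-like cells held 53.1% to 67.6% of Ccl2 and T/NK-like cells held 51.7% to 75.7% of Ccr2, while phagocyte-like cells held 94.3% to 98.6% of Ccl24.

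Ccl2, the main CCR2 ligand, was at 120 and 507 CPM in fibroblast-like cells of the WT tumours and at 109 and 370 CPM in those of the Il1a-/- tumours. Both replicates numbered 2 were high and both numbered 1 were low, so the genotypes overlapped. Fibroblast-like cells formed 2 clusters: cluster 0, led by Smpd3, Ptx3 and Pi16, and cluster 13, led by the matrix genes Cilp, Bgn, Col12a1 and Col1a1. Summed over tumours, Ccl2 stood at 488 CPM in cluster 13 and 92.2 CPM in cluster 0, and it was higher in cluster 13 in each tumour. The 2 replicates numbered 2 also held the most cluster 13 cells, 167 and 215, against 79 in WT replicate 1 and 15 in Il1a-/- replicate 1. The part of this mixture in the level of Ccl2 was not tested.

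Few fibroblast-like cells carried most of the Ccl2 UMIs. Of the 745 Ccl2 UMIs in Il1a-/- replicate 2, 291 came from 1 cell, and the 5 richest cells held 69.5%. In Il1a-/- replicate 1 the 5 richest cells held 88.5% of only 96 UMIs, with 51 in 1 cell. The WT tumours were less concentrated, with 42.2% of 268 UMIs and 32.0% of 1397 UMIs in 5 cells. A share of 5.23% to 37.8% of fibroblast-like cells had any Ccl2 UMI, and 3.46% to 20.4% did after each cell was thinned to 1000 UMIs, a step that makes cells of different depth comparable.

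Ccl7, which lies next to Ccl2 and encodes a second CCR2 ligand, was at 219 and 451 CPM in WT and at 97.4 and 227 CPM in Il1a-/- fibroblast-like cells. The higher Il1a-/- tumour lay just above the lower WT tumour, so the groups overlapped. Cluster 13 was again above cluster 0 summed over tumours (374 against 176 CPM), but in WT replicate 2 cluster 0 was the higher one (483 against 443 CPM). Ccl8 was at 378 and 801 CPM in WT and 390 and 590 CPM in Il1a-/- fibroblast-like cells. After thinning, 20.1% to 34.7% of fibroblast-like cells had a Ccl8 UMI, against 1.43% to 5.41% of T/NK-like cells, a class that should lack it. Median depth was 3142 to 10387 UMIs in the fibroblast-like and 1303 to 4389 in the T/NK-like cells before thinning. Ccl8 made up 1828 to 6358 CPM of the free RNA in barcodes of at most 100 UMIs, the largest free RNA level among the 8 genes in each tumour. Marker UMIs of phagocytes, summed over their 12 genes, stood at 152 to 307 CPM in the fibroblast-like cells, against 12361 to 15393 CPM in the phagocyte-like cells, and their part in these Ccl8 counts was not tested. Ccl12 and Ccl24 were close to absent from fibroblast-like cells, with 4 and 8 UMIs over all 4 tumours.

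Among phagocyte-like cells Ccl8, Ccl12 and Ccl24 were at higher levels in macrophage-like than in monocyte-like cells. Macrophage-like sub-clusters held 773 cells and 58.2% of the class's UMIs, and monocyte-like ones 226 cells and 10.0% of its UMIs. The remaining 663 cells stayed unnamed. Among them, sub-cluster 8 (80 cells) had the listed T/NK markers Nkg7, Trbc2 and Cd3g among its leading genes. Sub-cluster 9 (184 cells) had Batf3, a listed conventional dendritic marker, among its own. Whether other cells are mixed into the class was not tested. The macrophage-like cells held 89.4% of the class's Ccl8 UMIs and 82.5% of its Ccl12 UMIs, but 52.6% of its Ccl24 UMIs, with 46.5% of Ccl24 in the unnamed cells. Monocyte-like cells held 0.0738% of Ccl8, 0.236% of Ccl12 and 0.925% of Ccl24. Their Ccl8 level was 19.6 and 55.3 CPM in WT and 28.4 and 28.0 CPM in Il1a-/-. That is near the level of T/NK-like cells (36.0 and 45.9 CPM, then 18.5 and 42.6 CPM). The part of free RNA in these counts was not tested. Ccl2 did not follow this split: it stood at 143 CPM in macrophage-like and 140 CPM in monocyte-like cells. Ccl7 did, at 147 CPM against 34.8 CPM.

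Ccl8 was the most abundant ligand by UMIs, and a single sub-cluster held most of it. Sub-cluster 0, led by the scavenger receptor gene Cd163 together with Ccl8 and Gas6, held 68.5% of the phagocyte Ccl8 UMIs in 17.1% of the class's UMIs. Its Ccl8 level was 26505 and 17325 CPM in WT and 24799 and 13008 CPM in Il1a-/-. It was high in every tumour, and the genotypes overlapped. This sub-cluster held 77 and 122 cells in WT, but 7 and 32 in Il1a-/-. A second group with high Ccl8 was sub-cluster 10, led by Mfge8, Mmp12 and Ctsl, at 18161 CPM in Il1a-/- replicate 2 with 29 of its 44 cells, and at 485 to 1712 CPM in the other 3 tumours. Because these sub-clusters were drawn from the same cells, their levels describe them and are not a test.

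Ccl12, which lies just before Ccl8 on chromosome 11, was highest in unnamed sub-cluster 1 (554 CPM) and in sub-cluster 0 (531 CPM). Sub-cluster 1 had 10 of 12 macrophage markers and stayed unnamed because of its low UMI counts. Sub-cluster 7, led by Pmepa1, Cx3cr1 and Adamdec1, had 315 CPM of Ccl12. Of Ccl12-positive phagocyte-like cells 69.4% also had Ccl8 after thinning, against 23.8% of Ccl12-negative cells. The excess was present in each tumour, from 35.0% against 10.3% in Il1a-/- replicate 1 to 78.7% against 29.2% in WT replicate 2. Ccl2 and Ccl7 were likewise found in the same cells: 42.3% of Ccl7-positive cells had Ccl2, against 8.70% of Ccl7-negative cells.

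Summed over tumours, Ccl24 was highest in unnamed sub-cluster 9 (4444 CPM, led by Ccl17, Ccr2 and Dmkn) and unnamed sub-cluster 11 (3747 CPM, whose leading genes include Ero1l and Hilpda, genes of the response to low oxygen). These sums weigh the tumours unequally, since 137 of the 184 cells of sub-cluster 9 came from WT replicate 2. Sub-cluster 9 had 1041 and 4908 CPM in WT and 357 and 4071 CPM in Il1a-/-, and sub-cluster 11 had 1476 CPM in WT replicate 2 and 1796 and 4207 CPM in Il1a-/-. Among the named sub-clusters, macrophage-like sub-cluster 4 was the highest at 3136 CPM, with 2203 and 2970 CPM in WT and 2858 and 3829 CPM in Il1a-/-. In WT replicate 1, which had no cell of sub-cluster 11, and in Il1a-/- replicate 1 it was above sub-cluster 9. Sub-clusters 2 and 3, both monocyte-like, had 246 and 92.3 CPM. Sub-cluster 11 also had the highest Ccl2 (470 CPM) and Ccl7 (330 CPM) of all 12 sub-clusters, with 125 of its 144 cells from the second Il1a-/- tumour.

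**Figure D2:**
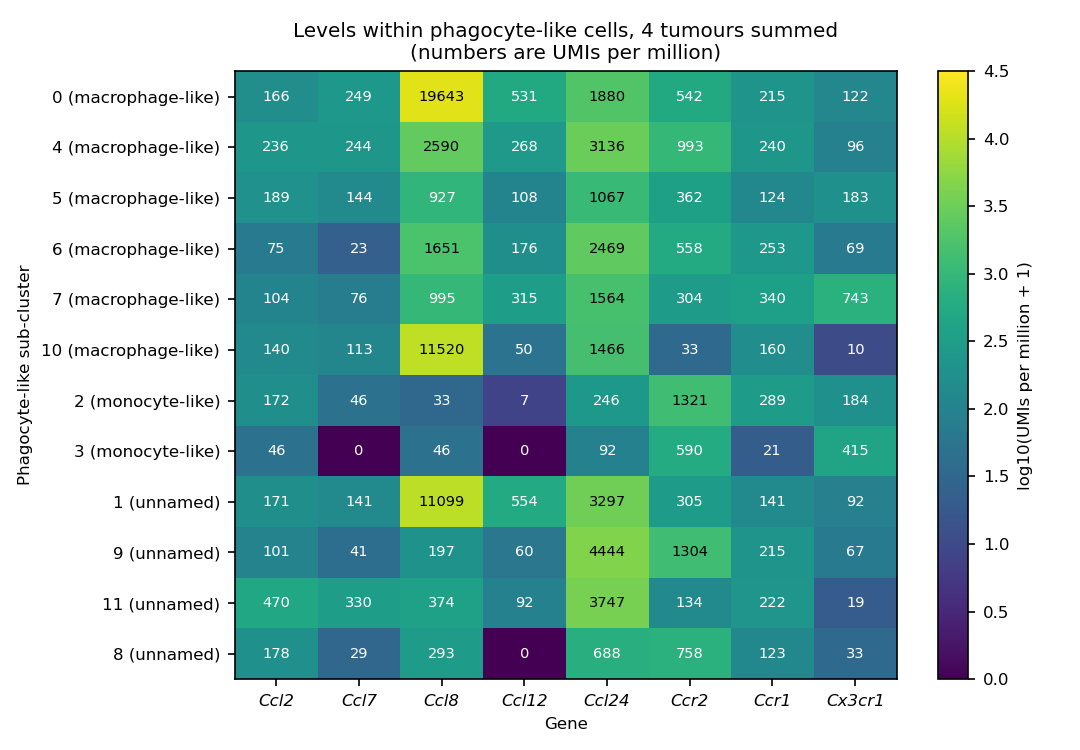
Level of each gene in the 12 sub-clusters of phagocyte-like cells, with the UMIs of the 4 tumours summed; numbers in the cells are CPM and colour is log10 of that value plus 1. Ccl8 peaks in sub-cluster 0, Cx3cr1 in sub-cluster 7 (743) and Ccr2 in the classical monocyte-like sub-cluster 2 (1321) and the unnamed sub-cluster 9 (1304).

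The receptors were spread over more cell types than the ligands. Ccr2 had 19170 UMIs, of which T/NK-like cells held 58.4%, phagocyte-like cells 25.5%, plasmacytoid dendritic-like cells 8.79% and conventional dendritic-like cells 4.30%. By level the order was different. Ccr2 over the 4 tumours stood at 723 CPM in plasmacytoid dendritic-like, 632 CPM in phagocyte-like, 485 CPM in conventional dendritic-like and 390 CPM in T/NK-like cells, and ranges over tumours overlapped between each class and the next. Fibroblast-like cells had 4.44 CPM and tumour epithelial-like cells 3.88 CPM. Before thinning, a Ccr2 UMI was seen in 69.1% and 57.3% of WT phagocyte-like cells and in 45.7% and 43.7% of those in Il1a-/-. Fibroblast-like cells, the class that should lack it, had one in 0.348% to 2.72%, and plasmacytoid dendritic-like cells in 59.0% to 96.2%. These shares depend on depth, which was lower in the Il1a-/- libraries. After thinning, the phagocyte-like shares were 46.7% and 40.2% in WT and 38.6% and 26.1% in Il1a-/-. The plasmacytoid dendritic-like range was then 32.1% to 55.4%.

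Within phagocyte-like cells the Ccr2 level was higher in monocyte-like than in macrophage-like cells. It was 1538 and 960 CPM in WT and 709 and 957 CPM in Il1a-/- monocyte-like cells, and each tumour was above its own macrophage-like cells (579 and 507 CPM, then 544 and 400 CPM). In Il1a-/- replicate 1 the monocyte-like level rests on 25 UMIs in 23 cells, and there the share of cells with a UMI went the other way (30.4% of monocyte-like and 48.3% of macrophage-like cells, or 31.5% and 40.0% after thinning). Sub-cluster 2, led by the classical monocyte genes Ifitm6, Hp, Vcan and Ly6c2, reached 1321 CPM, and unnamed sub-cluster 9 was close to it at 1304 CPM. Sub-cluster 3, whose leading genes include Ace and Treml4, genes of nonclassical monocytes, had 590 CPM of Ccr2 and 415 CPM of Cx3cr1. Sub-cluster 10 had only 10 UMIs of Ccr2 in 44 cells beside its high Ccl8.

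Ccl8 was found in a smaller share of the phagocyte-like cells with Ccr2 than of those without it. After thinning, 18.1% of Ccr2-positive phagocyte-like cells had Ccl8, against 36.3% of Ccr2-negative ones. The lower share in Ccr2-positive cells was seen in all 4 tumours, from 7.50% against 17.0% in Il1a-/- replicate 1 to 26.0% against 43.9% in WT replicate 2. Within macrophage-like cells alone the shares were 29.5% and 50.5%. Ccl2 differed little by Ccr2 status, at 11.2% and 11.7%; both genes of this ligand and receptor pair were seen in 237 of 1662 phagocyte-like cells before thinning. These shares are descriptions of cells, with no test.

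Summed over tumours, T/NK-like cells held most Ccr2 UMIs at a lower level than phagocyte-like cells. In Il1a-/- replicate 2 the levels were the other way, at 361 CPM in T/NK-like and 339 CPM in phagocyte-like cells. Among the T/NK-like clusters the Ccr2 level was highest in cluster 21 (871 CPM over 104 cells), which is led by Cd163l1, Tcrg-C1 and Il17a, genes of interleukin 17-producing γδ T cells. Its value was 762 to 915 CPM in the 4 tumours. Cluster 8, led by the natural killer cell genes Ncr1, Xcl1 and Klra4, had 612 CPM. The lowest was cluster 9, led by Trdc, Tcrg-C4 and Gzmc, at 198 CPM, with 179 to 236 CPM in the 4 tumours. Regulatory T cell genes Foxp3 and Il2ra led cluster 3, which had 489 CPM. The unnamed cluster led by S1pr1, Tcf7 and Ccr7, genes of naive-like T cells, had 141 CPM.

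Ccr1 was mainly a phagocyte and neutrophil transcript. Phagocyte-like cells held 76.5% of its 2265 UMIs and neutrophil-like cells 11.2%, in only 116 cells. The level in neutrophil-like cells was 1480 and 1772 CPM in WT and 440 and 1094 CPM in Il1a-/-, where 6 and 9 cells gave 2 and 13 UMIs. In T/NK-like cells it reached 28.3 CPM in cluster 5, led by Il13, Ccl1 and Il1rl1, and was at most 6.45 CPM in every other T/NK-like cluster. Within phagocyte-like cells Ccr1 was similar in monocyte-like (222 CPM) and macrophage-like cells (244 CPM), and low in the Ace-led sub-cluster 3 (20.5 CPM).

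The cells that held Cx3cr1 differed from tumour to tumour. Phagocyte-like cells held 84.5% and 46.6% of its UMIs in the WT tumours, and 8.65% and 18.9% in the Il1a-/- tumours. T/NK-like cells held most of the rest, 10.5% and 47.3% in WT, then 87.6% and 75.7%. Within phagocyte-like cells 52.4% of all Cx3cr1 UMIs were in sub-cluster 7, which had 81 and 29 cells in WT against 1 and 0 in Il1a-/-. Even within this sub-cluster the WT tumours differed, at 1078 and 233 CPM. Among lymphocytes Cx3cr1 summed over tumours was at 86.3 CPM in cluster 20, led by Ccl5, Ifitm1 and Cd8b1, genes of CD8 T cells, and at 79.8 CPM in cluster 5. Their order differed by tumour. Cluster 20 had 0 and 31.3 CPM of Cx3cr1 in WT and 154 and 47.0 CPM in Il1a-/-, and cluster 5 had 64.4 and 122 CPM in WT and 86.8 and 35.0 CPM in Il1a-/-.

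**Figure D3:**
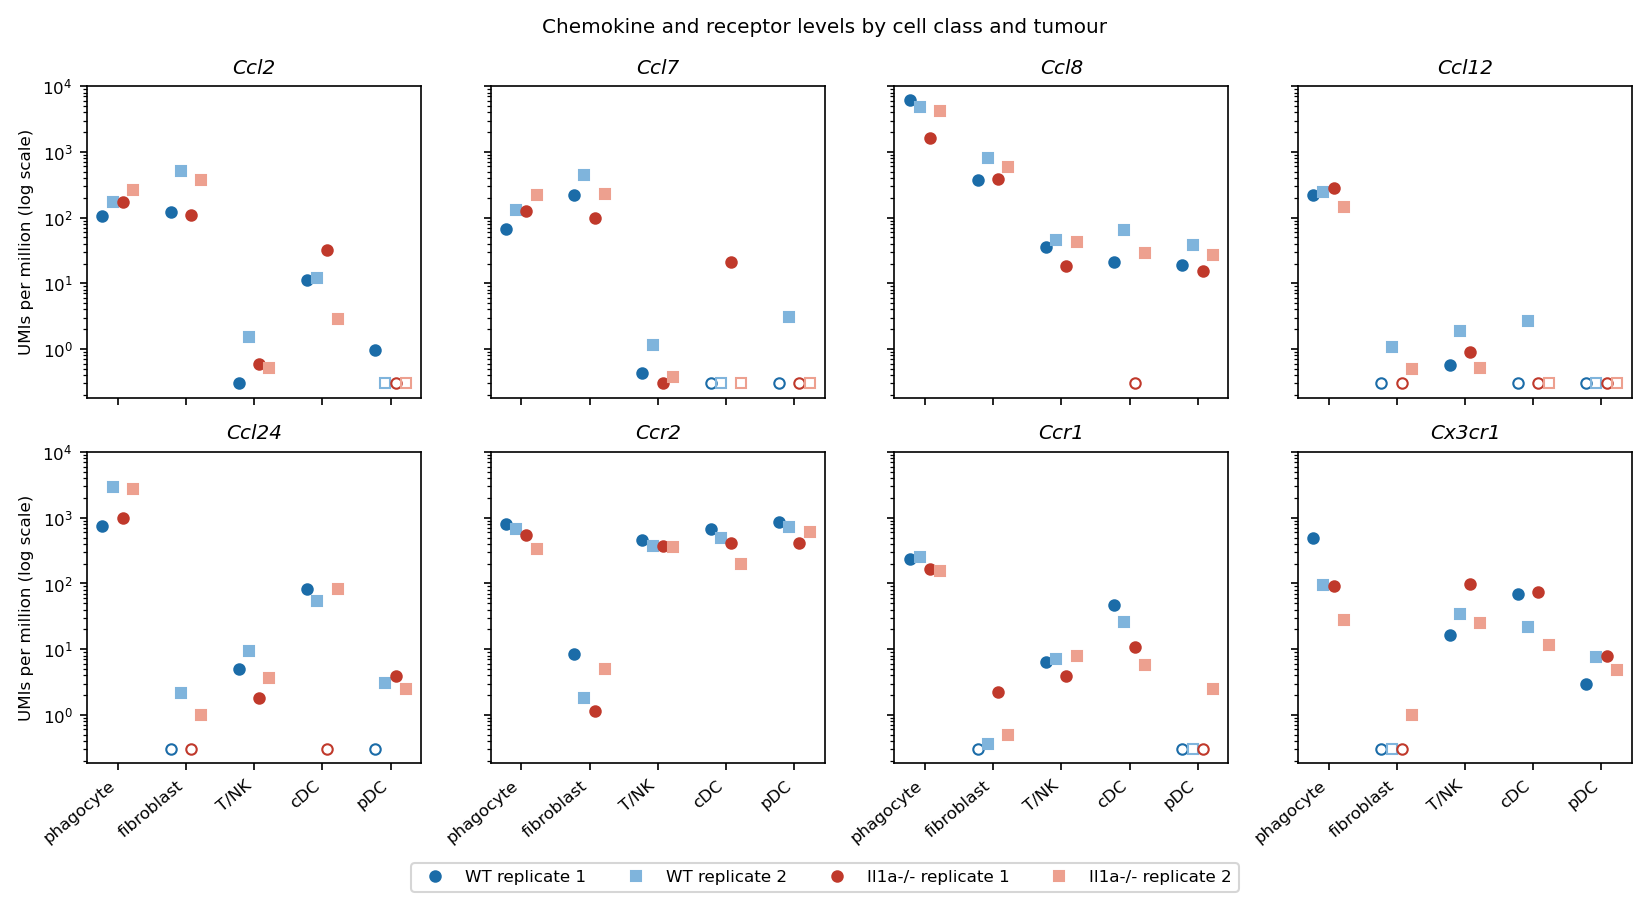
Level of each gene in 5 cell classes (cDC, conventional dendritic-like; pDC, plasmacytoid dendritic-like), with 1 point for each tumour, in CPM on a log axis; open symbols at the bottom mark 0 UMIs. Outside phagocyte-like cells Ccl24 reaches at most 83.7 CPM, whereas Ccr2 lies between 197 and 856 CPM in all classes except fibroblast-like cells.

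The question of the study is what host interleukin 1α does to the tumour's immune cells, and the title of the series names the step from monocyte to macrophage. Counts were summed per tumour and class and compared between Il1a-/- and WT hosts by the quasi-likelihood test of edgeR, and p-values were adjusted over all genes tested (Benjamini-Hochberg). Each group held 2 tumours, and the planned test estimates the spread of a gene partly from the other genes in the fit. A p-value therefore does not measure the spread of that gene alone. The SE given with an edgeR estimate is a standard error calculated from the estimate and its test statistic F. None of the 8 genes passed an adjusted p of 0.05 in any of the 6 comparisons by genotype, and the values follow by class.

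In phagocyte-like cells all 3 receptors were lower in both Il1a-/- tumours than in both WT tumours. The same held for 26.9% of the 8957 genes tested in this class. Ccr2 was at 816 and 683 CPM in WT and at 542 and 339 CPM in Il1a-/-, so the log2 fold change was -0.77 with an SE of 0.25 (adjusted p = 0.242). Ccr1 was at 235 and 257 CPM in WT and at 168 and 153 CPM in Il1a-/-, which gives -0.60 ± 0.21 on the log2 scale (SE; adjusted p = 0.268). For Cx3cr1 the values were 487 and 96.0 CPM in WT and 92.8 and 28.1 CPM in Il1a-/-, which gives -2.47 ± 0.77 (SE; adjusted p = 0.231). WT replicate 1 stood far above the other 3 tumours here, and the lower WT value was close to the higher Il1a-/- value. Without WT replicate 1 the change of Cx3cr1 was -0.92. Without the cells of sub-cluster 7 the change of Cx3cr1 was -1.56 (adjusted p = 0.349 by edgeR). That sub-cluster was picked after seeing the data, as the one with the highest Cx3cr1 level. This step is therefore a description and not a test. Cx3cr1 passed in the edgeR test with the replicate number as a block (-2.05, adjusted p = 0.0248) and with no filter on low counts (-2.48, adjusted p = 4.58e-13). In the fit with no filter 371 genes rose and 167 fell, against 8 and 2 in the main fit. The estimate hardly moved, so that p-value is not read as a measure of the spread between tumours. Without Il1a-/- replicate 1 the change of Cx3cr1 was -3.24.

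The ligands in phagocyte-like cells went both ways. Ccl2 was at 106 and 170 CPM in WT and at 174 and 259 CPM in Il1a-/-, which gives 0.71 ± 0.32 on the log2 scale (SE; adjusted p = 0.381). The higher WT value nearly met the lower Il1a-/- value, 170 against 174 CPM. Ccl7 was at 66.3 and 131 CPM in WT and at 125 and 218 CPM in Il1a-/-, so the groups overlapped (0.87 ± 0.39, SE; adjusted p = 0.381, and 0.0485 with no filter on low counts). Ccl8 was at 6127 and 4890 CPM in WT and at 1650 and 4261 CPM in Il1a-/- (-0.84 ± 0.44, SE; adjusted p = 0.441). The lowest tumour was Il1a-/- replicate 1, in which 2 cells held 50% or more of the 569 Ccl8 UMIs. Ccl8 passed without Il1a-/- replicate 2 (-1.80, adjusted p = 0.0494) and with no filter on low counts (-0.84, adjusted p = 0.0258). Ccl12 had 223 and 246 CPM in WT and 278 and 145 CPM in Il1a-/-, and Ccl24 had 747 and 2896 CPM in WT and 1006 and 2769 CPM in Il1a-/-. Their log2 fold changes were -0.19 ± 0.28 and 0.10 ± 0.65 (SE; adjusted p = 0.801 and 0.969), and for Ccl24 the replicates differed more than the genotypes.

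Across all 8957 genes tested in phagocyte-like cells, 0.112% passed the test, 10 in number. The groups did not overlap for 47.2% of these genes (20.2% higher and 26.9% lower in Il1a-/-), against 5 of the 8 genes here (Ccl2 higher, and Ccl8, Ccr2, Ccr1 and Cx3cr1 lower), a share near that background. In the thinned cells the share with a Ccr1 UMI was 20.2% and 20.7% in WT and 14.7% and 14.2% in Il1a-/-. For Ccr2 it was 46.7% and 40.2% in WT and 38.6% and 26.1% in Il1a-/-. An exact two-sided permutation test gave p = 0.333 for both, the smallest p that 2 against 2 tumours allow, so no call can be made. Summed macrophage markers (12 genes) were at 21486 and 11596 CPM in WT and 5955 and 7258 CPM in Il1a-/- phagocyte-like cells, with 1 marker at 0 in Il1a-/- replicate 1. Summed monocyte markers (12 genes) were at 3792 and 4808 CPM in WT and 4885 and 12686 CPM in Il1a-/-. That list is not specific to monocytes: it summed to 5762 to 13726 CPM in fibroblast-like and 5696 to 6560 CPM in plasmacytoid dendritic-like cells. Monocyte-like cells numbered 74 of 391 and 72 of 700 in WT, and 23 of 164 and 57 of 407 in Il1a-/-. The part of these marker levels and cell numbers in the receptor levels was not tested. By part of the class, Ccr1 had 302 and 225 CPM in WT and 113 and 123 CPM in Il1a-/- monocyte-like cells, where the value of Il1a-/- replicate 1 is 4 UMIs. It had 249 and 288 CPM against 168 and 130 CPM in macrophage-like cells. In the unnamed phagocyte-like cells Ccr1 overlapped, at 133 and 210 CPM in WT and 201 and 181 CPM in Il1a-/-. Ccr2 overlapped between the genotypes in macrophage-like cells and differed most in the unnamed cells, at 1174 and 926 CPM in WT and 435 and 143 CPM in Il1a-/-. The unnamed cells were of different sub-clusters in each tumour: sub-cluster 9 had 28 and 137 cells in WT and 7 and 12 in Il1a-/-, and sub-cluster 11 had 0 and 15 against 4 and 125.

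**Figure D4:**
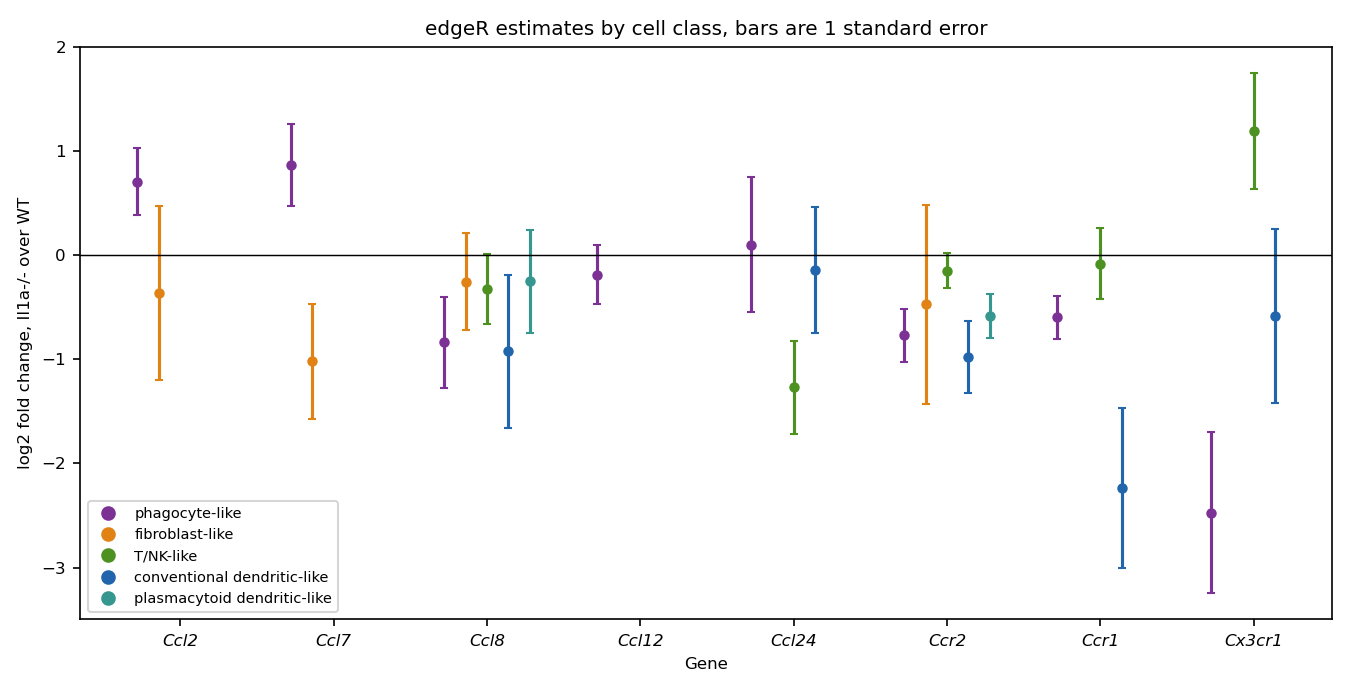
Estimated log2 fold change of each gene in Il1a-/- over WT tumours by edgeR in 5 cell classes. Bars are 1 standard error, calculated from the estimate and its test statistic F. Classes in which a gene did not pass the filter on low counts have no point. Ccr2 lies below 0 in all 5 classes, but within 1 standard error of 0 in fibroblast-like and T/NK-like cells. No estimate passed an adjusted p of 0.05.

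In fibroblast-like cells the estimate for Ccl7 was -1.02 ± 0.55 on the log2 scale by edgeR (SE; adjusted p = 0.870). The estimate was -0.36 ± 0.83 for Ccl2 (adjusted p = 0.961) and -0.25 ± 0.46 for Ccl8 (adjusted p = 0.947). Of 10086 genes tested, 0% passed in this class with edgeR, 471 had an unadjusted p under 0.05 and DESeq2 called 12. The groups did not overlap for 36.4% of genes, and for none of the 4 that were tested here. Leaving out WT replicate 2 turned the estimate of Ccl2 to 1.06 and that of Ccl8 to 0.43. These 4 are the ones that passed the filter on low counts, and Ccr2 among them rested on 1 to 19 UMIs per tumour.

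Ccl7 was thus higher on average in Il1a-/- phagocyte-like cells and lower on average in Il1a-/- fibroblast-like cells. The difference between both changes was tested as an interaction in edgeR, with each tumour as a block. For Ccl7 it was -1.91 ± 0.33 on the log2 scale (SE; adjusted p = 0.217 by edgeR). Of the 11110 genes in that fit 0.027% passed. With no filter on low counts its adjusted p was 0.0023. For Ccl2 the interaction was -0.95 ± 0.53 (SE; adjusted p = 1). Neither passed the planned test. The ratio of fibroblast-like to phagocyte-like Ccl7, read from the levels above, was lower in both Il1a-/- tumours than in both WT tumours, as the plot of the source cells shows. It comes from the same values as the interaction and adds no support, and the share of all genes that separate so was not computed. In Il1a-/- replicate 1 it rests on few cells. There the 5 richest cells held 72.1% of 43 phagocyte-like UMIs and 64.0% of 86 fibroblast-like UMIs.

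**Figure D5:**
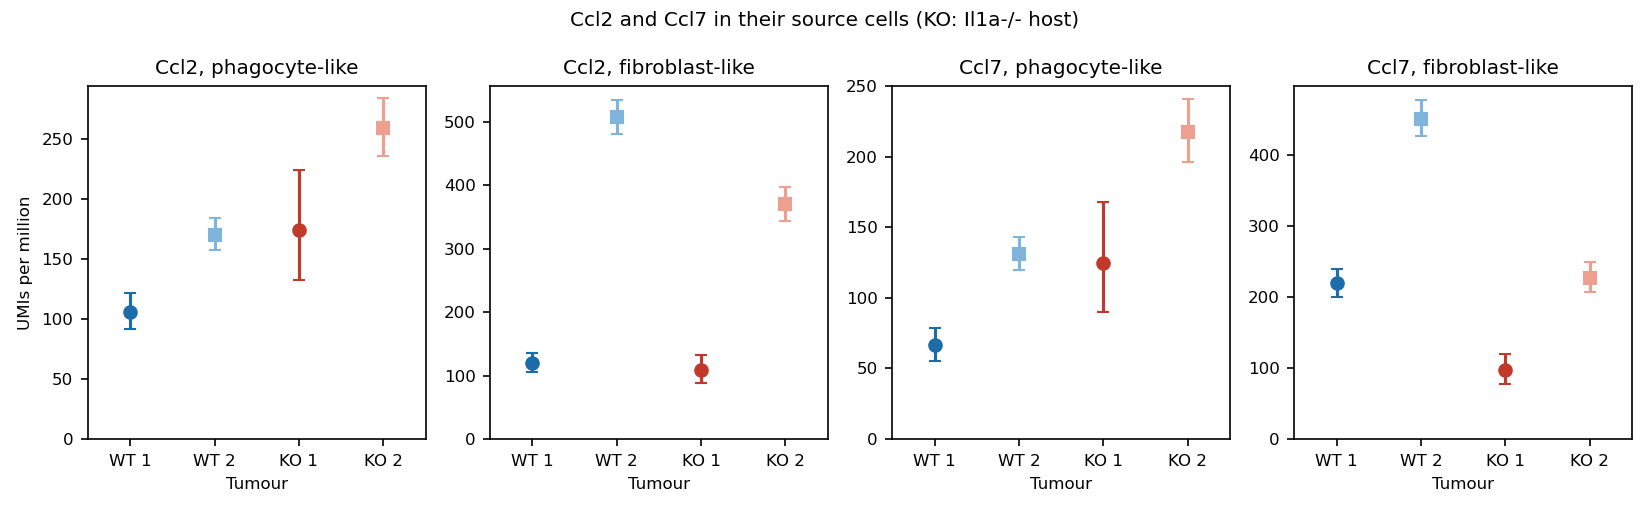
Ccl2 and Ccl7 in CPM in phagocyte-like and fibroblast-like cells of each tumour (KO, Il1a-/-), with exact Poisson intervals that cover counting error only. In fibroblast-like cells the replicates numbered 2 lie above those numbered 1 within each genotype, and Ccl7 in WT replicate 2 is the highest at 451 CPM.

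In both dendritic-like classes Ccr2 was lower in the Il1a-/- tumours than in the WT tumours. Conventional dendritic-like cells had 674 and 493 CPM in WT and 417 and 197 CPM in Il1a-/-, or -0.98 ± 0.34 on the log2 scale (SE; adjusted p = 0.352 by edgeR). Of 5017 genes tested in that class 0.0797% passed, and 41.6% did not overlap between the groups. The phagocyte marker list summed to 2254 to 3214 CPM in this class, and to 3048 to 3215 CPM in plasmacytoid dendritic-like cells, so it is not specific to phagocytes. Its own conventional dendritic markers summed to 2436 and 1968 CPM in WT and 1432 and 1780 CPM in Il1a-/-. Sums of different lists are not comparable with each other. Its T/NK markers summed to 407 and 374 CPM in WT and 620 and 738 CPM in Il1a-/-. Of its 293 cells, 34 passed the dendritic marker gate and 69 the phagocyte gate. Whether other cells are mixed into the class, and their part in the Ccr2 level, was not tested. Ccr2 passed without WT replicate 2 (-1.24, adjusted p = 0.0415), without Il1a-/- replicate 1 (-1.45, adjusted p = 0.0321) and with no filter (-1.08, adjusted p = 0.0449). Plasmacytoid dendritic-like cells had 856 and 711 CPM in WT and 414 and 604 CPM in Il1a-/-, or -0.58 ± 0.21 (SE; adjusted p = 0.158 by edgeR). In this class 2.69% of 5900 genes passed and 45.5% did not overlap, and Ccr2 passed without Il1a-/- replicate 2 (-0.91, adjusted p = 0.0459). Ccr1 in conventional dendritic-like cells was at 47.6 and 25.7 CPM in WT and at 10.7 and 5.81 CPM in Il1a-/- (adjusted p = 0.352 by edgeR). The Il1a-/- values are 1 and 2 UMIs, with exact Poisson intervals of 0.270 to 59.5 CPM and 0.703 to 21.0 CPM.

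In T/NK-like cells the estimate for Ccr2 was near 0. Its level was 455 and 377 CPM in WT and 369 and 361 CPM in Il1a-/-, or -0.15 ± 0.17 (SE; adjusted p = 0.623 by edgeR), with no overlap. Here 5.59% of 10961 genes passed the test and 56.7% did not overlap. The class was made of different clusters in each genotype: natural killer cluster 8, high in Ccr2, had 434 and 517 cells in WT and 47 and 4 in Il1a-/-, and the part of this in the Ccr2 level was not tested. Cx3cr1 was at 16.6 and 34.6 CPM in WT and at 96.6 and 24.9 CPM in Il1a-/- (1.19 ± 0.56, SE; adjusted p = 0.230), and only Il1a-/- replicate 1 was high. Leaving that tumour out gave -0.01 (adjusted p = 0.995). Leaving out Il1a-/- replicate 2 gave 1.90 (adjusted p = 0.00303). With no filter it was 1.16 (adjusted p = 2.39e-07 by edgeR), in a fit where 878 genes rose and 855 fell, against 362 and 251 in the main fit. That p-value too is not read as a measure of the spread between tumours. Cluster 20, the CD8 T cell cluster, had 19 and 55 cells in WT and 792 and 548 in Il1a-/-. Ccl24 had 5.02 and 9.53 CPM in WT and 1.79 and 3.68 CPM in Il1a-/- T/NK-like cells (-1.27 ± 0.45, SE; adjusted p = 0.131, and 0.0189 with the replicate block). The free RNA level of Ccl24 was 110 to 889 CPM, and 24 of the 35 UMIs in WT replicate 1 came from 1 cell.

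Summed over all called cells, Ccr2 was nearly level, at 325 and 311 CPM in WT and 298 and 293 CPM in Il1a-/- (log2 fold change -0.03 ± 0.14, SE; adjusted p = 0.907 by edgeR), although the groups did not overlap. Of 14027 genes, 1.07% passed and 61.4% did not overlap. Ccr1 was at 31.6 and 51.1 CPM in WT and at 14.2 and 26.5 CPM in Il1a-/- (-0.92 ± 0.40, SE; adjusted p = 0.208, and 0.0357 with the replicate block). The phagocyte-like class, which holds most Ccr1, had 391 and 700 cells in WT and 164 and 407 in Il1a-/-, and the neutrophil-like class 33 and 68 against 6 and 9. The part of these cell numbers in the level over all cells was not tested.

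Genes with a like profile were sought over 27 sums of class and tumour, from 8 classes and 11258 genes, by Pearson's r of log2(CPM + 10). The sums share tumours and depth, so r is a description without a test. Ccl2 and Ccl7 were each other's closest match (r = 0.979), followed for Ccl2 by Dram1 (0.955). Ccl12 was closest to Ms4a7 (0.991), Msr1, Fcgr1 and Adgre1, all macrophage genes, and Ccl24 to F13a1 (0.974). Ccl8 was closest to Apoe (0.912). Among receptors Ccr1 was closest to Igsf6 (0.981) and Cx3cr1 to Dok2 (0.846). The correlation of Ccr2 with its ligands over these sums was -0.07 for Ccl2, -0.12 for Ccl7 and 0.35 for Ccl12.

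Other genes of the axis were read from 3 lists, of 18 other ligands and growth factors, 15 other receptors and 19 signalling genes. In phagocyte-like cells 8, 4 and 18 of them were tested and none passed by edgeR. At an unadjusted p under 0.05 were 1, 2 and 2 of them, in that order, beside 13.8% of all 8957 genes. The signalling gene with the smallest p was Rgs10, which encodes a protein that shortens G protein signals, at 297 and 205 CPM in WT and 81.2 and 81.6 CPM in Il1a-/- (-1.58 ± 0.25, SE; adjusted p = 0.0608). Among receptors it was Cxcr4, the receptor of CXCL12, at 136 and 74.0 CPM in WT and 351 and 226 CPM in Il1a-/- (1.46 ± 0.32, SE; adjusted p = 0.112). In T/NK-like cells 2 ligands rose and 1 fell of 10 tested, where 5.59% of all genes passed. Ccl5, a chemokine of cytotoxic T cells, rose by 2.53 ± 0.29 (SE; adjusted p = 0.00842), Csf1, the growth factor of macrophages, rose by 0.78 ± 0.16 (SE; adjusted p = 0.0350), and Ccl1, a ligand of CCR8, fell by 2.41 ± 0.38 (SE; adjusted p = 0.0168). Ccl5 is the leading gene of cluster 20, whose cells were many more in Il1a-/- tumours, and the part of that in the rise was not tested. Of 18 signalling genes tested there, Arrb1 (0.97, adjusted p = 0.0370) and Rgs2 (1.08, adjusted p = 0.0499) rose and Rgs10 (-1.21, adjusted p = 0.0420) fell. The median log2 fold change of these lists in T/NK-like cells was -0.05 for ligands, -0.04 for receptors and 0.14 for signalling genes, beside -0.02 for all genes tested.

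In fibroblast-like cells none of 8 ligands, 4 receptors and 16 signalling genes tested passed by edgeR, and Ccl6 and Ccrl2 had an unadjusted p under 0.05, as had 4.67% of all genes. None passed in either dendritic class, where 7, 5 and 18 genes of the lists were tested in conventional and 3, 3 and 14 in plasmacytoid dendritic-like cells. At an unadjusted p under 0.05 were 2, 2 and 2 in the former and 1, 1 and 2 in the latter, beside 9.71% and 15.8% of all genes tested. Rgs10 in the plasmacytoid class was at 287 and 232 CPM in WT and at 180 and 107 CPM in Il1a-/- (-0.88 ± 0.25, SE; adjusted p = 0.0566). Over all called cells only Ccl5 passed among the 3 lists, rising by 2.93 ± 0.35 (SE; adjusted p = 0.0485).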

How the data were processed

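The deposited values are raw UMI counts per feature and barcode, made by the authors with Cell Ranger 3.1.0 per the file headers, whose feature names carry the prefixes GRCh38 and mm10; how reads that match several genes were treated is not given in the sources used here. Empty droplets had not been removed. Barcodes with at least 500 UMIs, 250 genes and at most 20% mitochondrial UMIs were kept. Those below 5000 UMIs also had to differ from free RNA (false discovery rate 0.001), and the highest Scrublet doublet scores were removed (0.8% per 1000 cells; scanpy 1.11.5). Cells were clustered without the 8 genes on 2000 variable genes (Leiden, resolution 1) and phagocyte-like cells again. A name needed at least 3 markers detected (50 CPM, 10% of cells, 20% of the highest level). Its score had to be at least 2 times the next. Among the 10 leading genes no other marker list could have more genes than its own list. A cluster with a median depth below 33.3% of that of its tumours also needed an own marker among its leading genes. Sums over classes with at least 20 cells per tumour were tested with edgeR 4.0.16 (R 4.3.3; filterByExpr, TMM), a script checked on simulated data. The tests for tumour epithelial-like and neutrophil-like cells fell short of that number. The SE of an edgeR estimate is its absolute value divided by the square root of its quasi-likelihood F statistic. CPM are UMIs scaled to the UMI total of the class. Depth was 6705368 to 29001333 UMIs per library, and intervals cover counting error only. Alternatives were DESeq2 1.42.0, RLE factors, no filter, a replicate block, each tumour left out, cells from 1000 UMIs up and marker gates. The 8 genes were all reported; genes of the other lists were named when they passed (at most 4 per list and class) or else as the 2 with the smallest p, of which a choice is printed. The genes and lists were chosen with earlier results of these data known. Gene positions are from GENCODE vM21 by gene identifier, 1-based. Some items are not reported here.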

Additional observations from a re-analysis of the deposited data

Results flagged for a closer look

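The reads had been counted on a combined human and mouse reference, and UMIs assigned to human features, which no comparison uses and for which no control sample exists, made up 0.00589% of WT replicate 1, 0.00522% of WT replicate 2, 0.00759% of Il1a-/- replicate 1 and 0.00678% of Il1a-/- replicate 2. They are above the limit that a count of 0 allows.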

How the results depend on the processing

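The genes called under other settings moved as follows, with causes not tested. Over all cells 150 genes were called, against 1799 by DESeq2, 2004 with no filter, 1362 with the replicate block, 2 in cells of at least 1000 UMIs and 0 to 140 with a tumour left out. In phagocyte-like cells 10 became 101 by DESeq2, 538 with no filter, 85 with the block and 0 (without WT replicate 1) to 340 (without Il1a-/- replicate 1). In fibroblast-like cells 0 became 12 by DESeq2 and 196 with no filter. In T/NK-like cells 613 became 1733 with no filter, 1658 with the block and 197 to 956 with a tumour left out. In conventional dendritic-like cells 4 became 13 by DESeq2, 98 with no filter, 50 with the block, 2 at 1000 UMIs and 0 to 92. In plasmacytoid dendritic-like cells 159 became 53 by DESeq2, 246 with the block and 82 by marker gates. For the interaction 3 became 90 with no filter, 12 by gates and 0 to 5. Of the 8 genes, the block called 1 over all cells (Ccr1), 1 in phagocyte-like (Cx3cr1) and 1 in T/NK-like cells (Ccl24), and no filter called 3, 2, 1 and 1 in phagocyte-like, T/NK-like, conventional dendritic-like cells and the interaction. With a tumour left out, 0 to 1 were called in phagocyte-like and both dendritic classes and 0 to 2 in T/NK-like cells.

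Deviations of same-numbered tumours correlated at 0.414 over all cells, 0.0812 in phagocyte-like, 0.482 in fibroblast-like, 0.316 in T/NK-like, 0.0243 in conventional and 0.0839 in plasmacytoid dendritic-like cells. With 2 pairs and no label that ties the number to a day, the pairing was not settled. The mean phagocyte-like share was 95.2% for Ccl12 by gates and 77.4% for Ccr1 at 1000 UMIs. Over all cells Cx3cr1 turned to 0.011 by DESeq2 and 0.064 at 1000 UMIs. Signs turned when a tumour was left out, with these log2 ranges: over all cells Ccl2 -0.89 to 1.31, Ccl7 -1.10 to 0.56, Ccl24 -2.03 to 1.57 and Cx3cr1 -1.08 to 0.63; in phagocyte-like cells Ccl12 -0.58 to 0.18 and Ccl24 -0.94 to 1.43; in fibroblast-like cells Ccl2 -1.54 to 1.06, Ccl8 -0.70 to 0.43 and Ccr2 -2.09 to 0.038. In T/NK-like cells they were Ccl8 -1.14 to 0.12, Ccr1 -0.79 to 0.26 and Cx3cr1 -0.0054 to 1.90. In conventional dendritic-like cells they were Ccl8 -7.35 to 0.030, Ccl24 -7.96 to 0.37 and Cx3cr1 -1.77 to 0.77, and in plasmacytoid ones Ccl8 -0.78 to 0.24. In the interaction they were Ccl12 -3.58 to 2.61, Ccl24 -3.28 to 1.59 and Ccr2 -1.51 to 1.69. The Il1a-/- minus WT difference in the share of phagocyte-like cells with a UMI ranged from -0.943 to 6.16 percentage points for Ccl7 and from -20.8 to 12.6 for Ccl24. Among the estimates of single genes 34 reversed, 17 newly passed and 318 kept direction and call. A fit that leaves 1 tumour in a group assumes that it varies like the others. Gates were not run for conventional dendritic-like cells, with 5 to 13 cells per tumour.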
